A study of Homo sapiens with 4 samples.

Results

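The human biotin-dependent carboxylase genes, with their partner subunits and the enzymes that attach and recycle biotin, were followed through a miRNA pull-down on streptavidin beads. The group held 9 genes, namely ACACA, ACACB, PC, PCCA, PCCB, MCCC1, MCCC2, HLCS and BTD, of 60554 genes in the count table. ACACA was chosen by its measured pull-down over input ratios, whose mean over both transfections was the highest of any gene, and the other genes were added for their function. The cells were IGROV1-R10, a human ovarian cancer line that is a cisplatin-resistant derivative of IGROV1. They had been transfected at 60 nM with a biotin-tagged duplex of miR-491-5p or with a control miRNA of the worm that also carried biotin (the design text names cel-miR-65). Nuclei and debris were spun out, and 10% of each lysate served as its input. The remaining lysate spent 4 h with streptavidin beads, which after 5 washes gave the pull-down, here also called the beads. The 4 groups were the miR-491-5p pull-down, the miR-491-5p input, the control pull-down and the control input. Each group was 1 library made from the pooled RNA of 3 experiments, so differences between groups could not be checked on replicates, and no p-values are given.

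Carboxylases of this family hold biotin covalently on a lysine and use it to carry carboxyl groups to an acyl-CoA or to pyruvate. Holocarboxylase synthetase (HLCS) attaches the biotin, and biotinidase (BTD) frees it again when the proteins are broken down. Streptavidin binds biotin, including that of these proteins, and carboxylases of the cell itself are a known background in streptavidin purifications. The biotin-holding domain lies inside the chain in ACACA and ACACB and near the carboxyl end in PC, PCCA and MCCC1, while PCCB and MCCC2 are partner subunits without biotin.

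The bait was the mature miRNA of the MIR491 gene, which lies on chromosome 9 at chr9:20716120-20716141 on the plus strand of GRCh38.p14. It is shown, as RefSeq gives it, because it is the molecule through which the study sought to hold RNA on the beads. The seed, bases 2 to 8, is in capitals, and no other of the 2370 mature human miRNAs listed there had the same seed.
hsa-miR-491-5p: aGUGGGGAacccuuccaugagg

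Total counts ran from 47679684 to 62582646, the control input being the shallowest library. A gene counted as measured when its mean normalised count over the 4 libraries was at least 50, and 12662 genes did so, among them all 9 of the group. Of 10 markers of epithelial and ovarian carcinoma, KRT8, KRT18, KRT19, EPCAM and PAX8 each had between 7352 and 50861 counts in every library. WT1 had 694 to 1302, KRT7, CDH1 and MUC16 between 84 and 599, and MSLN, with 9 to 14, was not measured. The 9 hepatocyte markers summed to 38 counts on the miR-491-5p beads and 23 on the control beads. Their sum was 20 counts in the input of the miR-491-5p transfection, against 2654 in that of the control. FGA, a fibrinogen chain gene among them, was at 0 in 3 libraries and at 213 counts in the control input. For the 9 genes, and for the pathway genes where it changes a statement, the control pull-down is therefore also set against the miR-491-5p input, an alternative chosen after seeing the data. That input too held marker RNA that the beads had little of. The 3 fibroblast markers summed to 222 counts in it and 551 in the control input, against 40 on the miR-491-5p beads and 42 on the control beads.

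The level of each gene in the inputs, as normalised count per kb of exon, differed widely among the 9 genes. MCCC2, the partner subunit of methylcrotonoyl-CoA carboxylase, stood highest, with 1405 per kb in the miR-491-5p input and 1444 in the control input. ACACA came next with 501 per kb in the miR-491-5p input and 550.0 in that of the control. HLCS, PCCB, PCCA, BTD and MCCC1 formed a middle group. In the miR-491-5p input they had 265, 237, 194, 166 and 172 per kb, and in that of the control 249, 226, 203, 184 and 143. PC, with 30.0 (miR-491-5p) and 35.1 (control) per kb, and ACACB, with 11.7 (miR-491-5p) and 10.3 (control), were lowest. Within this order, BTD and MCCC1 did not differ beyond counting error in the miR-491-5p input, nor did PCCA and BTD in the control input. The subunits of propionyl-CoA carboxylase were near each other, PCCB being 1.22-fold above PCCA with miR-491-5p and 1.11-fold with the control. The subunits of methylcrotonoyl-CoA carboxylase were not, since MCCC2 stood 8.18-fold above MCCC1 in the miR-491-5p input and 10.1-fold above it in the control input.

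**Figure D1:**
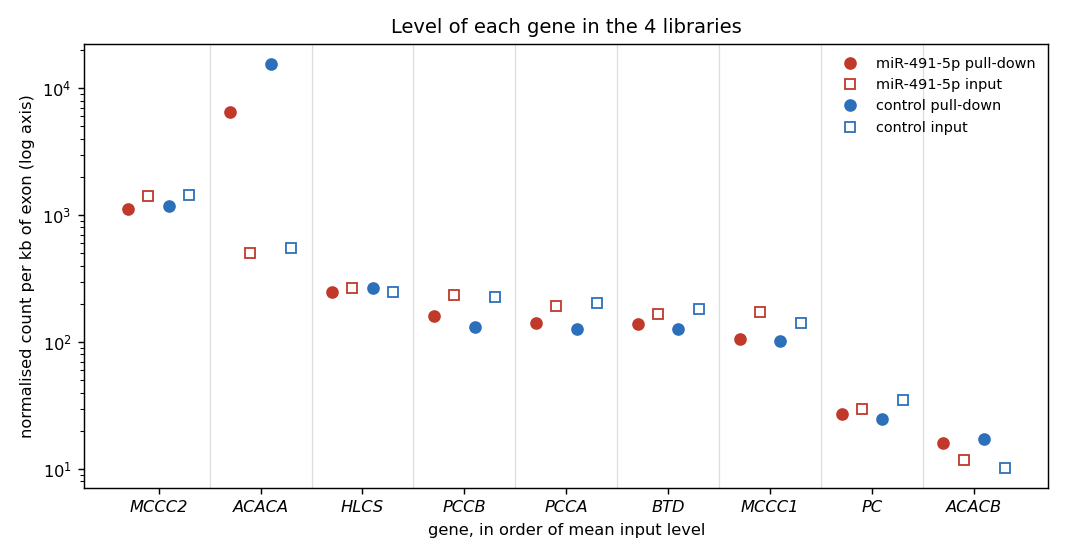
Level of each of the 9 genes as normalised count per kb of exon (log axis), in order of the mean input level. Filled circles are pull-downs and open squares inputs, red for miR-491-5p and blue for the control, 1 library each. Only ACACA has both pull-downs far above both inputs, at 6514 and 15475 against 501 and 550.0 per kb.

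ACACA encodes acetyl-CoA carboxylase alpha, the cytosolic enzyme that makes malonyl-CoA for fatty acid synthesis (ENSG00000278540, chromosome 17, 37084988 to 37406818, minus strand, hg38). It had 104798 counts on the miR-491-5p beads against 6235 in its input, and 226673 counts on the control beads against 5568 in its input. Both pull-downs lay far above both inputs. As a share of all counts this was 0.170% of the miR-491-5p pull-down (95% Wilson interval 0.169% to 0.171%) against 0.0105% of its input. In the control transfection it was 0.362% of the pull-down (0.361% to 0.364%) against 0.0117% of the input. By plain count ACACA was the 19th gene of the whole table on the miR-491-5p beads against the 2440th in their input, and the 4th on the control beads against the 2153rd in theirs. Per kb of exon it ranked 196th of the 12662 measured genes on the miR-491-5p beads, against 4970th in their input. In the control transfection it ranked 48th in the pull-down against 4680th in the input.

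After scaling by DESeq2 size factors, the log2 ratio of pull-down over input of ACACA was 3.70 with miR-491-5p, a 13.0-fold difference, with a 95% counting interval of 3.66 to 3.74. With the control miRNA it was 4.81, or 28.1-fold (4.78 to 4.85). These intervals, like all those given here, cover counting error only, since each group was 1 library. Duplicates were left out of the counting but no molecular identifiers were used, so reads need not equal molecules. Set against the miR-491-5p input in place of the control input, the control pull-down had 4.95. By pull-down over its own input ACACA was the 2nd of the measured genes in each transfection and the 1st by the mean of both, 4.26. The gene above it differed between the transfections. With miR-491-5p it was ENSG00000261069, which matched no named gene, at 4.09, and with the control miRNA it was SOCS6, a suppressor of cytokine signalling, at 5.13. The next by the mean was ENSG00000278896 at 3.50, a gene with few input counts, 15 in the miR-491-5p library and 6 in the control library. ACACA was selected on these ratios, so they are a description.

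Of the 9 genes only ACACA exceeded its input by 2-fold or more with an interval that excluded 0, a count of 1 with each miRNA, and 0 were lower by that much. Over all measured genes 5.34% were higher and 4.96% lower with miR-491-5p, and 8.61% higher and 10% lower with the control. With both miRNAs together 2.66% were higher and 2.84% lower. Under scaling by total counts the higher calls made up 91.0% of all calls with miR-491-5p, instead of 51.8%, and 62.9% with the control, instead of 46.2%. ACACA made up 87.4% of the counts of the 9 genes on the miR-491-5p beads against 29.9% in its input, and 94.3% on the control beads against 31.9% in its input. The other 8 genes together had a normalised count of 12182 on the miR-491-5p beads against 15249 in its input, and of 12264 on the control beads against 15286 in its input. As a sum they were thus lower on the beads in both transfections under the size factors. MCCC2 alone held 6758 of the 12182 and 8479 of the 15249 with miR-491-5p. With the control it held 7075 of the 12264 and 8713 of the 15286. As a share of all counts the sum was near level with miR-491-5p, 15066 of 61705443 against 14595 of 59588552. With the control the share was still lower, 13810 of 62582646 against 11897 of 47679684.

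**Figure D2:**
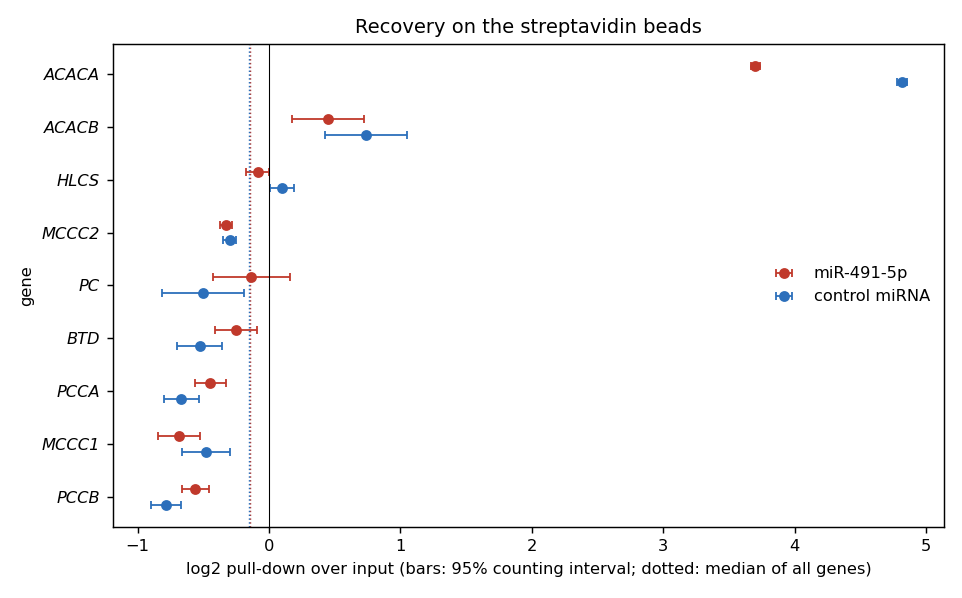
Log2 pull-down over input of each of the 9 genes with miR-491-5p (red) and the control miRNA (blue), with 95% counting intervals. Dotted lines mark the median of all measured genes, -0.15 with each miRNA. ACACA lies at 3.70 and 4.81, ACACB at 0.45 and 0.73, and the other 7 between -0.79 and 0.10.

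ACACB encodes acetyl-CoA carboxylase beta, whose malonyl-CoA at the outer mitochondrial membrane restrains fatty acid import (ENSG00000076555, chromosome 12, 109116595 to 109268226, plus strand). Its normalised count was 233 on the miR-491-5p beads against 170.3 in its input, and 249 on the control beads against 149 in its input. The pull-downs were above the inputs, without overlap, as in 23.7% of all measured genes, on low counts of 116 to 288 reads. Its log2 ratio was 0.45 with miR-491-5p (0.17 to 0.73) and 0.73 with the control (0.42 to 1.05), neither past 2-fold, and 0.54 on the control beads against the miR-491-5p input. It thus stood second in the group, 0.60 (miR-491-5p) and 0.89 (control) above the medians of all genes. ACACA exceeded ACACB in this ratio by 3.25 with miR-491-5p (2.97 to 3.53) and by 4.08 with the control (3.77 to 4.39) on the log2 scale. In level per kb, ACACA stood 42.7-fold above ACACB in the miR-491-5p input and 53.5-fold in the control one.

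The mitochondrial carboxylase subunits that hold biotin were near or below their inputs. PC (ENSG00000173599, chromosome 11, 66848233 to 66958376, minus strand) encodes pyruvate carboxylase, which makes oxaloacetate from pyruvate. It had a normalised count of 162 on the miR-491-5p beads against 178 in its input, and 147 on the control beads against 208 in its input. Its log2 ratio was -0.13 with miR-491-5p, with an interval of -0.43 to 0.16 that held 0, and -0.50 with the control (-0.82 to -0.19). PCCA (ENSG00000175198, chromosome 13, 100089015 to 100530435, plus strand) encodes the biotin-holding subunit of propionyl-CoA carboxylase. It had 877 on the beads against 1195 in the input with miR-491-5p, and 789 against 1254 with the control. Its ratios were -0.45 (-0.57 to -0.33) with miR-491-5p and -0.67 (-0.80 to -0.54) with the control, so both pull-downs lay under both inputs, as in 41.7% of all measured genes. MCCC1 (ENSG00000078070, chromosome 3, 183015218 to 183116075, minus strand) encodes the biotin-holding subunit of the methylcrotonoyl-CoA carboxylase of leucine breakdown. It had 461 on the beads against 742 in the input with miR-491-5p, and 441 against 617 with the control. Its ratios were -0.69 (-0.84 to -0.53) with miR-491-5p and -0.48 (-0.66 to -0.30) with the control, again with both pull-downs under both inputs. Against the miR-491-5p input the control ratios were -0.28 for PC, with an interval of -0.58 to 0.03 that then held 0, -0.60 for PCCA and -0.75 for MCCC1.

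The partner subunits without biotin also lay below their inputs under the size factors. PCCB (ENSG00000114054, chromosome 3, 136250306 to 136337896, plus strand) had 1208 on the beads against 1781 in the input with miR-491-5p, and 987 against 1702 with the control. This gave log2 ratios of -0.56 (-0.66 to -0.46) with miR-491-5p and -0.79 (-0.90 to -0.67) with the control. MCCC2 (ENSG00000131844, chromosome 5, 71587288 to 71658704, plus strand) had 6758 on the beads against 8479 in the input with miR-491-5p, and 7075 against 8713 with the control. Its ratios were -0.33 (-0.37 to -0.28) with miR-491-5p and -0.30 (-0.35 to -0.25) with the control, and under total counts the miR-491-5p value was -0.0078, level with its input. Set against the miR-491-5p input, the control ratios were -0.85 for PCCB and -0.26 for MCCC2. Within a complex the subunit with biotin and its partner were then compared directly. PCCA exceeded PCCB by 0.11 with miR-491-5p (-0.04 to 0.27) and by 0.12 with the control (-0.05 to 0.29), and both intervals held 0. MCCC1 was lower than MCCC2, by a log2 difference of -0.36 with miR-491-5p (-0.52 to -0.19) and of -0.18 with the control (-0.37 to 0.01), where the interval held 0. With the miR-491-5p input in place of the control input, the control values were 0.25 (0.09 to 0.42) for PCCA minus PCCB and -0.49 (-0.66 to -0.32) for MCCC1 minus MCCC2. On the miR-491-5p beads neither biotin-holding subunit thus exceeded its partner beyond counting error, and on the control beads PCCA did so with that input alone.

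HLCS and BTD act on biotin without being carboxylases. Under the size factors HLCS was close to its inputs, while BTD lay below its own, as most of the carboxylase subunits did. HLCS (ENSG00000159267, chromosome 21, 36750888 to 36990236, minus strand) had a normalised count of 1966 on the miR-491-5p beads against 2088 in its input, and 2106 on the control beads against 1963 in its input. Its log2 ratios, -0.087 (-0.17 to -0.0014) with miR-491-5p and 0.10 (0.0081 to 0.19) with the control, lay on opposite sides of 0. Against the miR-491-5p input the control ratio was 0.012, with an interval of -0.07 to 0.10 that held 0, so the opposite sides rest on the control input. Under total counts both were above 0, at 0.23 (miR-491-5p) and 0.24 (control). BTD (ENSG00000169814, chromosome 3, 15601341 to 15645822, plus strand) had 517 on the beads against 616 in the input with miR-491-5p, and 471 against 679.7 with the control. Its ratios were -0.25 (-0.41 to -0.09) with miR-491-5p and -0.53 (-0.70 to -0.36) with the control, or -0.39 on the control beads against the miR-491-5p input. Both pull-downs of BTD lay under both inputs, as in 41.7% of all measured genes. Under total counts BTD with miR-491-5p was at 0.07 and PC at 0.18, so their side of 0 depended on the scaling.

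Under total counts the median over all genes was shifted by 0.32 with miR-491-5p and by 0.14 with the control, and the 9 genes moved with it. Relative to the median under the size factors, ACACA lay at 3.85 (miR-491-5p) and 4.96 (control). On that footing PCCA, PCCB, MCCC1, MCCC2 and BTD were below the median with both miRNAs, ACACB and HLCS above it with both, and PC at 0.01 (miR-491-5p) and -0.35 (control). By the mean of both ratios, 58.9% of the measured genes were below HLCS and 87.0% below ACACB. For the 6 remaining genes this share was at most 37.9%, the value of MCCC2.

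**Figure D3:**
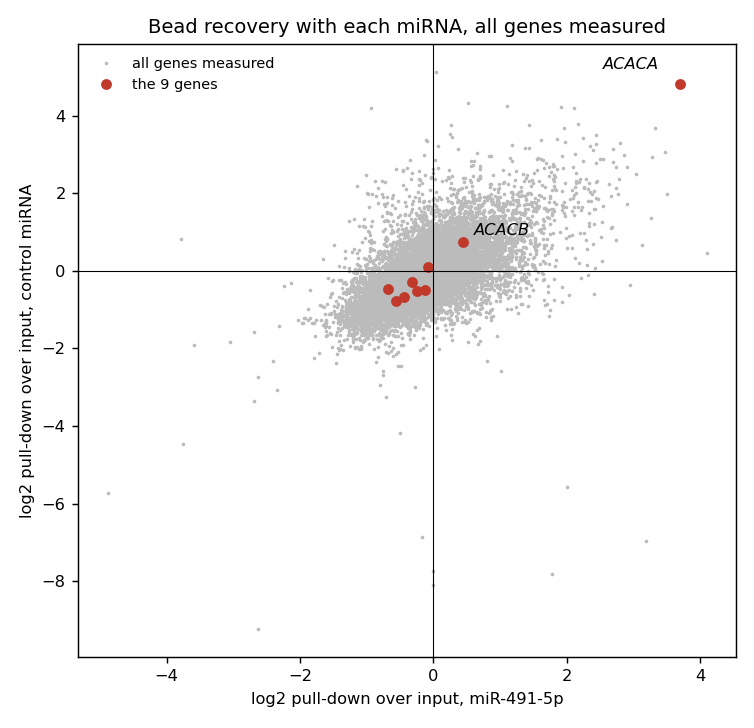
Log2 pull-down over input with miR-491-5p (horizontal) and for the control miRNA (vertical) for the 12662 measured genes (grey) and the 9 genes (red). ACACA stands at 3.70 and 4.81, at the upper right end of the cloud, while the other 8 genes lie inside it.

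The ratios of all genes were higher in those with a larger summed exon length, and ACACA and ACACB are long by that measure. The median log2 pull-down over input was -0.50 (miR-491-5p) and -0.58 (control) in the 1557 genes with under 2000 bases of exon. It was 0.08 (miR-491-5p) and 0.24 (control) in the 1373 genes with at least 10000. ACACA has 13008 bases of exon and ACACB 14505, while the other 7 genes have between 3704 (BTD) and 7889 (HLCS). Among the 1373 long genes, 5.75% were at least 2-fold higher and 0.655% lower with miR-491-5p, 11.8% higher and 1.17% lower with the control, and 3.42% higher with both. By the mean of both ratios ACACA ranked 1st of these long genes and ACACB 263rd, where the median of long genes was 0.16 and their quartiles -0.11 and 0.48. The part of length in the values was not tested.

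**Figure D4:**
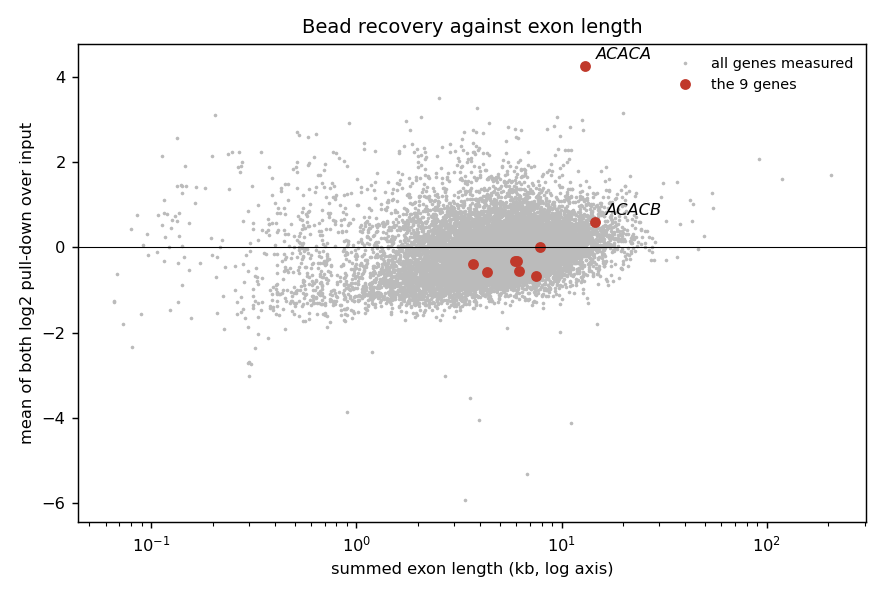
Mean of both log2 pull-down over input ratios against summed exon length in kb (log axis) for the measured genes (grey) and the 9 genes (red). ACACA, with 13008 bases of exon, lies at 4.26, above all other measured genes of any length, and ACACB, with 14505 bases, at 0.59.

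No other gene inside the ACACA locus had many reads. Inside its span lie 6 other annotated genes, none of which shares exon bases with it, and the largest count of any of them in any library was 4, for C17orf78 in the input with miR-491-5p. The nearest gene on one side, AATF, an apoptosis-antagonising factor, had -0.51 (-0.57 to -0.46) with miR-491-5p and -1.16 (-1.22 to -1.09) with the control. The nearest gene on the other side, TADA2A, a transcription adaptor, had 0.13 (0.04 to 0.21) with miR-491-5p and -0.25 (-0.35 to -0.15) with the control. Since strand was not used in the counting and reads over several genes were left out, exons shared with another gene make a value uncertain. ACACB and MCCC2 shared none, but 22.1% of the exon bases of PCCB lie under STAG1, 12.7% of those of BTD under HACL1 and 10.5% of those of PC under LRFN4. LRFN4 itself was higher on the beads than PC, at 0.98 (0.68 to 1.27) with miR-491-5p and 0.69 (0.41 to 0.98) with the control. For PCCA the share was 4.41%, for MCCC1 1.67% and for HLCS 1.27%.

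The genes most like ACACA over the 4 libraries were found by the distance between log2 profiles, each profile being taken around its own mean. TNRC6B and TNRC6A, which encode partners of Argonaute in miRNA silencing, were nearest, at distances of 1.22 and 1.31. TNRC6B had 66660 counts on the miR-491-5p beads against 12037 in its input and 224565 on the control beads against 8408 in its input, with log2 ratios of 2.10 (miR-491-5p) and 4.21 (control). TNRC6A had log2 ratios of 2.17 (miR-491-5p) and 3.78 (control). Also among the nearest were the small nucleolar RNA SNORA73B (1.36) and LRRN3 (1.48), which encodes a neuronal leucine-rich repeat protein. Like ACACA, TNRC6A and TNRC6B were lower on the miR-491-5p beads than on the control beads. Within the group the gene nearest to ACACA was ACACB, at a distance of 3.76 and in place 1614 of all measured genes, and the remaining 7 lay between 4.33 and 5.05.

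The study's own comparison set miR-491-5p against the control miRNA. Its enrichment divides the ratio of the pull-downs by the ratio of the inputs, to allow for RNAs that fall after transfection. ACACA had a log2 enrichment of -1.11 (-1.17 to -1.06), the only value of the 9 genes past 2-fold, and it was thus lower with miR-491-5p. Over all measured genes 9.78% passed in either direction, 4.46% higher and 5.32% lower. Under total counts the enrichment of ACACA was -0.93, no longer past 2-fold. On the beads its normalised count was 84736 with miR-491-5p against 201298 with the control, a log2 ratio of -1.25 (-1.26 to -1.24). In the pull-downs alone 5.67% of genes passed, 2.5% higher and 3.17% lower, and ACACA alone of the 9 was past 2-fold. In the inputs it had 6515 with miR-491-5p against 7154 with the control, a log2 ratio of -0.14 (-0.19 to -0.08).

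The other 8 genes had enrichments between -0.29 and 0.37, with a median of 0.10, where the median of all genes was 0.00. The intervals of PCCA (0.22, 0.04 to 0.40), PCCB (0.23, 0.07 to 0.38) and BTD (0.28, 0.04 to 0.51) lay above 0, and that of HLCS (-0.19, -0.31 to -0.06) below it, although under total counts HLCS had -0.0088. Those of ACACB (-0.29, -0.70 to 0.13), PC (0.37, -0.06 to 0.80), MCCC1 (-0.20, -0.44 to 0.04) and MCCC2 (-0.03, -0.09 to 0.04) held 0. Under total counts PC had 0.55 and MCCC2 0.15, and intervals of the same width would then lie above 0. Which intervals held 0 thus depended on the scaling for these genes. Both propionyl-CoA carboxylase subunits thus had nearly the same enrichment. In the pull-downs alone the 8 ratios ran from -0.10 for HLCS, which was at 0.06 under total counts, to 0.29 for PCCB (0.18 to 0.40). These ratios leave out the inputs. BTD had 0.14 there (-0.03 to 0.30), an interval that held 0, while that of PCCA (0.15, 0.02 to 0.28) stayed above it.

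The inputs show RNA of the cleared lysates, and 0 of the 9 genes differed by 2-fold there, where 1.24% of all genes did, 0.727% higher and 0.513% lower. In bulk RNA, fewer cells with a transcript and less of it per cell cannot be told apart. MCCC1 had the largest ratio with an interval that excluded 0, 0.27 (0.10 to 0.43), from 742 normalised counts with miR-491-5p against 617 with the control. PC at -0.23 (-0.54 to 0.08), BTD at -0.14 (-0.31 to 0.03) and ACACB at 0.19 (-0.15 to 0.53) had intervals that held 0. CPS1, the carbamoyl phosphate synthetase of the liver urea cycle, had an input ratio of -1.93, beside hepatocyte marker sums of 20 counts in the miR-491-5p input and 2654 in the control one. The part of the hepatocyte marker RNA in the input levels of PC, BTD and the others was not tested.

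**Figure D5:**
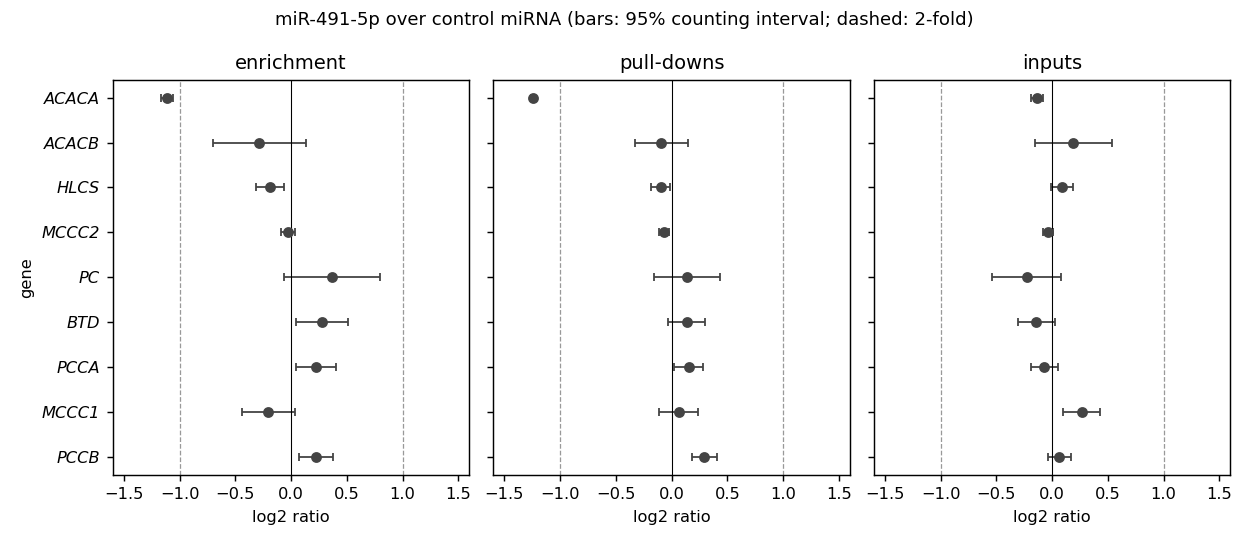
Log2 ratio of miR-491-5p over the control miRNA for each of the 9 genes, as enrichment, in the pull-downs and in the inputs, with 95% counting intervals and dashed lines at 2-fold. ACACA lies at -1.11, -1.25 and -0.14, and the other 8 genes stay inside 2-fold in all 3 panels.

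Genes of the pathways around these enzymes were set beside them, in 8 lists with 80 different measured genes. Of these, 1 was past 2-fold higher and 2 lower on beads with miR-491-5p, and 1 higher and 8 lower with the control, with medians of -0.37 (miR-491-5p) and -0.42 (control). Against the miR-491-5p input 0 were higher and 7 lower on the control beads, 6 of them lower against the control input too. Over all measured genes, each against its own input, 5.34% were higher and 4.96% lower with miR-491-5p. With the control 8.61% were higher and 10% lower. Higher calls, 1 of 80 with each miRNA, were thus scarcer in the lists than over all genes. The 8 lower calls with the control were near the share over all genes, and the 2 with miR-491-5p under it. The list medians lay below that of all genes, which was -0.15 with each miRNA. These differences were not tested. Among 21 measured genes of fatty acid synthesis and its regulation, the pathway that ACACA feeds, 1 was higher with miR-491-5p and 1 lower with the control, with medians of -0.28 (miR-491-5p) and -0.40 (control). FASN, fatty acid synthase, had a normalised count of 5361 on the miR-491-5p beads against 3053 in its input, and 3098 on the control beads against 4024 in its input. Its log2 ratios were 0.81 (0.75 to 0.87) with miR-491-5p and -0.38 (-0.45 to -0.31) with the control. The FASN ratio of the control beads over the miR-491-5p input was 0.02 (-0.05 to 0.09), so the value below 0 rests on the control input. ACLY, which makes cytosolic acetyl-CoA, had -0.16 (miR-491-5p) and -0.80 (control), SCD, the stearoyl-CoA desaturase, -0.76 (miR-491-5p) and -0.40 (control), and SREBF1, the transcription factor of the pathway, 0.06 (miR-491-5p) and -0.12 (control). ELOVL1, a fatty acid elongase chosen after its values were seen, was the list's call with miR-491-5p, at 1.71 (1.64 to 1.77), and had -0.85 with the control. The citrate carrier gene SLC25A1, also named after its value was seen, was the call with the control, at -1.18. With both miRNAs 0 of the 21 were higher, where the share over all genes was 2.66%.

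Of 9 measured genes of AMPK and other regulators of acetyl-CoA carboxylase, 0 passed 2-fold with either miRNA, with medians of -0.12 (miR-491-5p) and 0.27 (control). Of 9 genes of the propionate and methylmalonate pathway, downstream of PCCA and PCCB, 0 passed with miR-491-5p and SUCLG1 was lower with the control, with medians of -0.49 (miR-491-5p) and -0.35 (control). Of 10 genes of leucine breakdown, in which MCCC1 and MCCC2 act, 0 passed with miR-491-5p and BCAT2 was lower with the control, with medians of -0.49 (miR-491-5p) and -0.43 (control). Both mitochondrial pathways thus had medians below the -0.15 of all genes, as most of the mitochondrial carboxylase genes did. Every other list except that of AMPK and other regulators was also below it with both miRNAs, fatty acid synthesis among them. Low medians were therefore not particular to mitochondrial genes. Of 18 genes of pyruvate use, around PC, 1 was lower with miR-491-5p, and 1 was higher and 4 lower with the control, with medians of -0.48 (miR-491-5p) and -0.70 (control). MPC2, a subunit of the mitochondrial pyruvate carrier, was lower with both miRNAs, at -1.16 (-1.18 to -1.13) with miR-491-5p and -1.07 (-1.10 to -1.04) with the control. Its partner MPC1 stood at 0.26 with miR-491-5p and past 2-fold lower with the control, at -1.13, while GOT1, an aspartate aminotransferase, had -0.53 (miR-491-5p) and 1.37 (control). Against the miR-491-5p input the control values were -0.86 for MPC1 and 0.97 for GOT1, neither past 2-fold, so both calls rest on the control input. The other 2 lower calls with the control were PKM and LDHB.

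Of the genes of biotin uptake 2 were measured and 0 passed, with medians of -0.26 (miR-491-5p) and -0.40 (control). The shares of all measured genes that passed in either direction were 10.3% (miR-491-5p) and 18.6% (control), for comparison with the small lists here. SLC5A6, the sodium-dependent vitamin transporter that takes up biotin, had -0.08 (-0.16 to -0.01) with miR-491-5p and -0.62 (-0.70 to -0.54) with the control. The 8 genes of lipoyl-carrying proteins and lipoylation, whose cofactor also sits on a lysine but is not biotin, had medians of -0.46 (miR-491-5p) and -0.40 (control). GCSH, at -1.03 (-1.20 to -0.86), was lower with miR-491-5p, and 0 passed with the control. There GCSH had nearly the same value, -0.96 (-1.12 to -0.80), just short of 2-fold. DLAT, the lipoyl-holding subunit of pyruvate dehydrogenase, had a normalised count of 9112 on the miR-491-5p beads against 12037 in its input, and 7679 on the control beads against 11181 in its input. Its log2 ratios were -0.40 (-0.44 to -0.36) with miR-491-5p and -0.54 (-0.58 to -0.50) with the control, beside -0.45 and -0.67 for PCCA. Of 6 genes of carbamoyl phosphate synthetases and other relatives of the carboxylase fold without biotin, 0 passed with miR-491-5p and CPS1 was lower with the control, at -1.83, a ratio that rests on the control input, since against the miR-491-5p input it was 0.10 (-0.48 to 0.68). The medians of these 6 were -0.51 (miR-491-5p) and -0.64 (control).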

How the data were processed

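RNA from 4 libraries of IGROV1-R10 cells was analysed as whole-number read counts per gene, which the authors deposited without normalization. Per the file headers, counts were made with featureCounts 1.5.0-p1 on GENCODE release 24 exons and hg38 alignments, without strand, leaving out duplicates, with both mates required to map. STAR, GRCh38 and DESeq2 1.10.1 are listed in the submitters' processing notes. Per the labels' protocols the kit made stranded libraries of total RNA. All 4 sample columns were used.

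Counts were scaled here with DESeq2 1.42.0 size factors (1.24, 0.957, 1.13 and 0.778 for the miR-491-5p pull-down, its input, the control pull-down and its input). Log2 ratios used normalised counts plus 1. Counting errors added 0.5 to each count, and intervals are 1.96 standard errors each side. A gene was called past 2-fold when its interval also excluded 0. Symbols came from RefSeq positions on GRCh38.p14, the same build: both ends within 20 bp, failing that the best overlap of at least 0.4 and 1 end within 2000 bp, failing that 1 end within 20 bp. This named 11704 of 12662 measured genes and all 9 members (BTD by its start alone). The calculation was tested on simulated counts. TMM factors came from edgeR 4.0.16. The members, gene lists and comparisons were chosen with earlier results of these data known. Named from the lists were fixed genes and those past 2-fold the same way with both miRNAs; other names are said to be chosen later, as are SUCLG1, BCAT2, PKM, LDHB, MPC1, GOT1, GCSH, CPS1, LRFN4 and SOCS6. Protein sequences and the control miRNA's sequence were not used here. Of the genes most like ACACA, 1 is not reported here.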

Additional observations from a re-analysis of the deposited data

Results flagged for a closer look

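The genes below lay on opposite sides of their input on the beads of the 2 transfections, with both counting intervals excluding 0. This held for 6 of 37 genes looked at (the 9 genes, the named pathway genes, those like ACACA and those around the members), among them ELOVL1, MPC1 and GOT1, which were named after their values were seen. It held for 1767 of all 12662 measured genes, or for 1283 of them with the control pull-down set against the miR-491-5p input, and with 1 library per group the difference was not tested. For HLCS the log2 ratio was -0.087 on the miR-491-5p beads and 0.10 on the control beads, a difference of -0.19 (-0.31 to -0.06). FASN had 0.81 (miR-491-5p) and -0.38 (control), a difference of 1.19. ELOVL1 had 1.71 (miR-491-5p) and -0.85 (control), a difference of 2.56 (2.46 to 2.66). MPC1 had 0.26 (miR-491-5p) and -1.13 (control), and GOT1 had -0.53 (miR-491-5p) and 1.37 (control), a difference of -1.90. TADA2A, the neighbour of ACACA, had 0.13 (miR-491-5p) and -0.25 (control). With the miR-491-5p input as the base, the control values were 0.012 (-0.07 to 0.10) for HLCS and 0.02 (-0.05 to 0.09) for FASN, whose intervals then held 0, so neither lay on opposite sides. They were -0.23 for ELOVL1, -0.86 for MPC1, 0.97 for GOT1 and -0.32 for TADA2A, on the same side as before.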

How the results depend on the processing

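ACACA remained the only gene of the 9 past 2-fold on the beads with each miRNA, and in the pull-downs alone, under total counts, edgeR TMM factors, pseudocounts of 5 and 0.5, a minimum mean count of 10 and no minimum. All 9 genes already passed the minimum of 50, so the lower minimums could not change their calls. Its bead ratios ran from 3.70 to 4.02 with miR-491-5p and from 4.81 to 4.95 with the control. Under total counts 0 genes of the group were past 2-fold in enrichment, where ACACA had -0.93. Of 180 such values of the members, 156 moved by less than their interval and 24 by more, all of them under total counts. Called values were those of ACACA alone, and 0 of these changed sign. Some values that were not called did change sign under total counts, among them PC, HLCS and BTD on the miR-491-5p beads. The higher share of all calls was 91.0%, 62.9%, 66.7% and 67.0% under total counts, against 51.8%, 46.2%, 45.6% and 44.0%, for the miR-491-5p beads, the control beads, the enrichment and the pull-downs. Since more genes enter, a minimum of 10 gave 2994, 4174, 2231, 1630 and 775 calls over all genes, and no minimum 3647, 4702, 2577, 2374 and 955, against 1304, 2358, 1238, 718 and 157, in that order with the inputs last. With the miR-491-5p input in place of the control input, an alternative added after seeing the data, MCCC1 minus MCCC2 was -0.49 (-0.66 to -0.32) and ACACA minus ACACB 4.41 on the control beads, and PCCA minus PCCB was 0.25 (0.09 to 0.42), an interval that no longer held 0. No paired analysis was possible because each group has 1 library. Depth limits ACACB and PC most, with 116 to 288 and 162 to 200 counts.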
